A study of Rattus norvegicus with 12 samples.

Results

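The genes described here are 7 small GTPases of the Ras superfamily, several of them known as inducible genes. Gem, Rem1, Rem2 and Rrad make up the RGK family. Rasd1 is a dexamethasone-induced Ras-like protein, Rasd2 is related to it, and Rasl11b is a further Ras-like gene. All probes carrying one of these 7 symbols as gene name were taken from the scanner files of 12 Agilent whole rat genome arrays. This gave 7 of 41012 probes and 6 of the 7 genes (of 33212 gene names in all): 2 probes for Rasd2, 1 each for Rem1, Rem2, Rrad, Rasd1 and Rasl11b, and 0 for Gem. The cells were PC12, a rat adrenal pheochromocytoma line, given PACAP38 (pituitary adenylate cyclase-activating polypeptide) at 1e-07 M and sampled after 5, 10, 15, 30, 60 or 120 min, with a control at each time. RNA from PC12 cells (n = 6 per group) was pooled, and each PACAP38 pool was hybridized with the control pool of its time on 2 arrays, once with PACAP38 in Cy5 and once in Cy3. Both arrays of a time point therefore share their RNA, each time point is 1 replicate, and the 2 folds given for it show the technical spread only. All values are from 1 cell line.

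Small GTPases switch between a GTP-bound and a GDP-bound state, and most are regulated by exchange factors and GTPase-activating proteins. RGK proteins are in large part regulated through the amount of protein made: they bind the beta subunit of voltage-gated calcium channels and lower the calcium current, and they act on cell shape. Rasd1, also called Dexras1, acts on heterotrimeric Gi proteins and is linked to neuronal nitric oxide synthase, and Rasd2, also called Rhes, is best known from the striatum. In neuroendocrine cells such as PC12, calcium entry and cAMP signalling control both secretion and neurite growth.

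Before any level is given, the probes that measured the RGK genes and Rasl11b are shown, because several of them gave little signal and their place in the transcript bears on what they can report. Each is a 60-base sequence from the files, 5′ to 3′. Capitals mark, in Rem1, the last codons of the phosphate-binding loop, whose first codons the probe does not hold, and, in Rem2, codons of the last of the guanine nucleotide-binding motifs, both found by translating the probe. The others hold neither of these motifs in an open frame.
Rem1: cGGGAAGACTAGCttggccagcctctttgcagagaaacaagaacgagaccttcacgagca
Rem2: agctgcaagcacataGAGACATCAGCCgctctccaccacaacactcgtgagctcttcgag
Rrad: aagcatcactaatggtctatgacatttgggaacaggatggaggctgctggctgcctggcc
Rasl11b: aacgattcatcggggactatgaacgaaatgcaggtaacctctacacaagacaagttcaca
Gem-described probe: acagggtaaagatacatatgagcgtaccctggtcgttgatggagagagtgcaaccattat

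By the files' annotation on rat build rn4, the Rem1 probe lies at chr3:142978263-142978322, the Rem2 probe at chr15:32543506-32543565 and the Rrad probe at chr19:274189-274348. The Rasl11b probe is on the minus strand at chr14:36395110-36396303. The Rrad and Rasl11b alignments run over 160 and 1194 bases, more than the 60 of a probe, so both alignments hold a gap. The Rasd1 probe is on the minus strand at chr10:46291486-46291545, and the Rasd2 probes are at chr19:14103930-14103989 and chr19:14102451-14102510. The Gem-described probe is listed without a map position under a predicted transcript, as similar to the GTP-binding protein Gem, and its gene number is that of Gem in RefSeq (assembly GRCr8). It falls outside the rule and is described separately.

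Scanner intensities limited what could be seen. The scanner software marked 38.4 to 49.6% of an array's spots as well above background for the control and 39.8 to 48.9% for PACAP38, and 0 as saturated. All 7 chromaffin-like markers that are on the array (Th, Dbh, Ddc, Chga, Chgb, Slc18a1 and Phox2a) were well above background on all 12 arrays in both RNAs. Of the markers of other cell types, this held in the control RNA for 2 of 5 fibroblast genes (Col1a1 and Pdgfra), 1 of 4 leukocyte genes (Cd68) and 0 of 3 endothelial genes. Col1a2 was well above background on 11 of 12 arrays in both RNAs, and Dcn on 4 with PACAP38 and 5 in the control. Col3a1, Ptprc, Cd14, Cd3e, Pecam1, Cdh5 and Kdr were well above background on 0 of 12 arrays in both RNAs. In bulk RNA, a change in how many cells express a gene and a change in RNA per cell cannot be told apart.

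Rasd1 was higher with PACAP38 at 30 and 60 min, and was the only member counted as higher. Counting required on each array a ratio of PACAP38 to control of 2 or more, or of 0.5 or less, together with a spot p-value under 0.01, the arrays pointing the same way. At 30 min 1 of the 7 member probes was counted as higher, where 0.249% of all probes were, and at 60 min 1 of 7, where 0.87% of all probes were. In both cases the probe was that of Rasd1. None of the 7 was counted at 5, 10 or 15 min, when 0.0, 0.0658 and 0.0902% of all probes were higher and 0.0, 0.0 and 0.0268% lower. Likewise 0 of 7 were lower at 30 or 60 min (0.102 and 0.375% of all probes), or higher at 120 min (1.95%).
The Rasd1 signal came up from the limit of detection. At 5 min the processed intensity was 16.6 and 17.1 with PACAP38 and 6.13 and 18.9 in the control, on the arrays with PACAP38 in Cy5 and in Cy3 in that order, and at 10 min it was 19.1 and 26.9 against 9.61 and 20.1. None of these was well above background, so no fold is given for either time. At 15 min PACAP38 reached 41.7 and 31.1, with the control at 25.2 and 18.5.
From 15 min on, PACAP38 was well above background on both arrays, while the control stayed below that limit on both arrays until 60 min. At 30 min the PACAP38 intensities were 107 and 91.7 and the control 18.5 and 23.2, ratios of 5.77 and 3.96. With the control set at its own level, or at the array's lowest level well above background if higher, the difference was 4.65-fold at 30 min. At 15 min it was 1.43-fold. The limit of this probe can lie higher, and normexp (offset 1) with loess gave 2.60 and 1.32 at these times.
The highest Rasd1 signal was at 60 min, the time at which both RNAs were well above background on both arrays. PACAP38 gave 193 and 190 and the control 36.6 and 37.5, folds of 5.26 and 5.08 with a geometric mean of 5.17. At 120 min PACAP38 had 50.3 and 60.7 against 33.6 and 30.4, folds of 1.497 and 1.998 with spot p-values of 0.197 and 0.00869. Rasd1 was thus past both limits on neither array at 120 min. With normexp background correction (offset 50) and loess in place of the processed intensities, the Rasd1 folds were 1.27 at 30 min and 1.65 at 60 min, short of the limit.

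**Figure D1:**
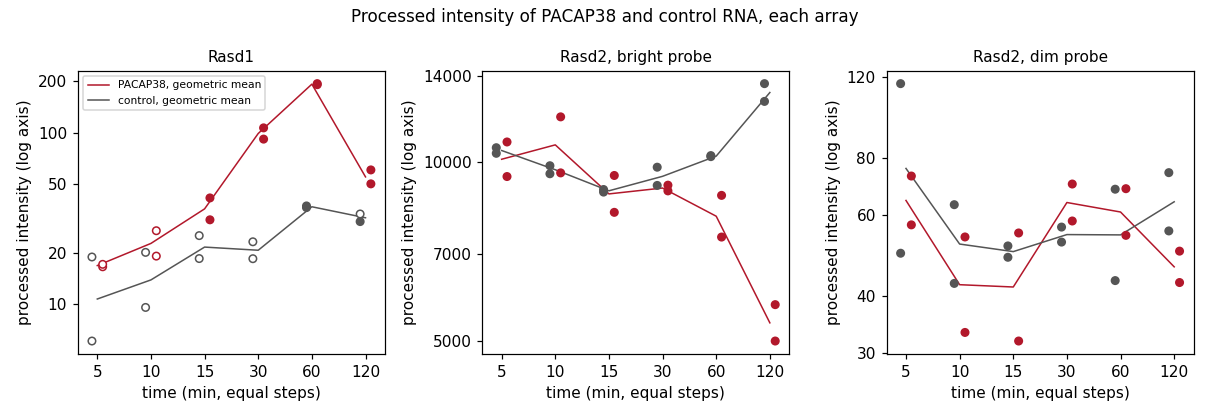
Processed intensity (log axis) of Rasd1 and of both Rasd2 probes at the 6 time points, with a point for each array (red PACAP38, grey control, open where the RNA was not well above background) and lines through the geometric mean of both arrays. Rasd1 with PACAP38 reaches 191 at 60 min and is 55.3 at 120 min, and the bright Rasd2 probe is at 5362 with PACAP38 and 13107 in the control at 120 min.

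The 6 control pools give a spread against which each PACAP38 pool can be set. The geometric mean intensity of Rasd1 in the control ran from 10.8 to 37.0 over the pools. At 30, 60 and 120 min PACAP38 lay above all 6, with 98.9, 191 and 55.3. Its 36.0 of the 15 min pool was inside the range. On log2 levels made comparable between arrays by Aquantile normalization, PACAP38 exceeded the highest control pool by 1.84 at 30 min and 2.37 at 60 min, and by 0.51 at 15 min and 0.28 at 120 min. Over the 18720 probes detected, 9.2, 10.6, 19.0 and 27.3% lay above all 6 control pools at 15, 30, 60 and 120 min. The range of the Rasd1 control pools, 1.55 in log2, was wider than the median of 0.43 over these probes. The Rasd1 control was well above background on 3 of 12 arrays, and its lowest pool, that of 5 min, on 0, so this range includes background signal.

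Rasd2 was lower with PACAP38 at 120 min, by its brighter probe. This probe had intensities between 4996 and 13566 and was well above background in both RNAs on all 12 arrays. At 120 min PACAP38 had 5754 and 4996 and the control 12663 and 13566, folds of 0.454 and 0.368 with a geometric mean of 0.409, which is 2.44-fold lower. It was the 1 member probe of 7 counted as lower at that time, where 1.53% of all probes were. With normexp and median centring its geometric mean fold was 0.351, with 1 array short of the limit.
Up to 30 min the geometric mean fold of this probe stayed between 0.956 at 30 min and 1.101 at 10 min, and the arrays of a time point lay on both sides of 1 at 5, 15 and 30 min. At 60 min the folds were 0.860 and 0.729, both below 1 and short of the limit. PACAP38 at 60 and 120 min was below all 6 control pools both on intensity (8110 and 5362 against 8950 to 13107) and on Aquantile levels, by 0.30 and 1.29 in log2. Over all detected probes 28.1 and 34.0% lay below all 6 control pools at these times. The control intensity at 120 min was the highest of the 6 pools, whereas on Aquantile levels it was the lowest, so the order of the control pools is set by the scaling between arrays and only the fold within a time point is independent of it.
The dimmer Rasd2 probe, also well above background in both RNAs on all 12 arrays, was not counted at any time. Its intensities were 31.8 to 116. At 120 min PACAP38 had 42.7 and 50.04 against 55.4 and 74.3, folds of 0.771 and 0.674, the same direction as the brighter probe and a smaller size. At 30 and 60 min its folds were at or above 1, with 1.11 and 1.24 and then 1.00 and 1.26, where the brighter probe had 1.00 and 0.912 and then 0.860 and 0.729. The probes of Rasd2 therefore gave different folds for the gene, and which transcripts each one reads was not tested.

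Among the RGK genes, Rem2 and Rrad had their highest PACAP38 signal at 120 min, and the ratios of the dye-swapped arrays differed there. For Rem2, PACAP38 had 79.6 and 51.8 and the control 25.5 and 45.5 at 120 min, ratios of 3.12 and 1.14 with spot p-values of 0.000104 and 0.584. For Rrad the intensities were 102 and 77.5 against 29.4 and 61.9, ratios of 3.46 and 1.25 with spot p-values of 0.000142 and 0.374. On the array with PACAP38 in Cy5 the control of both genes was not well above background, so 3.12 and 3.46 are ratios to an RNA that was not measured there. The other array measured both RNAs, and its folds of 1.14 and 1.25 were short of the limits. Neither gene is counted.
The geometric means of these ratios were 1.88 for Rem2 and 2.08 for Rrad, with SDs of 1.03 and 1.04 in log2 between the 2 arrays, about as large as the mean log2 ratios of 0.91 and 1.06. The geometric mean intensity with PACAP38 at 120 min was above all 6 control pools for both, at 64.2 against 16.6 to 34.1 for Rem2 and at 88.8 against 19.8 to 42.7 for Rrad. On Aquantile levels the excess over the highest control pool was 0.57 and 0.72 in log2, at a time when 27.3% of the detected probes lay above all 6. That pool was the 30 min control for both genes, which was well above background on 1 array for Rem2 and on 0 for Rrad. At 60 min the array with PACAP38 in Cy3 measured both RNAs of both genes and gave folds of 0.717 for Rem2 and 0.814 for Rrad. At 5 to 30 min both RNAs of these genes were well above background on 0 arrays, so no fold is given.
The difference between orientations ran through the whole time course. For Rem2 and for Rrad the ratio was higher on the array with PACAP38 in Cy5 at 6 of 6 time points, as it was for the brighter Rasd2 probe and for 21.3% of the detected probes. The mean difference between orientations was 1.04 in log2 for Rem2 and 1.5 for Rrad, and 0.22 for the brighter Rasd2 probe. Those of Rem2 and Rrad include times at which neither RNA was well above background. The Rem2 and the Rrad probe were each well above background on 6 of 12 arrays with PACAP38 and on 4 of 12 in the control.
Rem1 was well above background on 0 of 12 arrays in both RNAs, with intensities of 4.39 to 17.9, so no fold can be given and a change in this gene was not detectable. The Gem-described probe was also well above background on 0 of 12 arrays in both RNAs, with intensities of 4.66 to 26.4. Of the RGK family, then, Rem2 and Rrad were the members with a measurable signal.

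Rasl11b, a Ras-like protein, showed a strong dependence on dye. The Cy3 signal was the higher of the pair on all 12 arrays: with PACAP38 in Cy5 the ratio was below 1 at 6 of 6 time points, and with PACAP38 in Cy3 above 1 at 6 of 6. A Cy3 excess on every array was seen for 2.81% of the detected probes. At 60 min PACAP38 had 27.9 and 47.6 and the control 44.5 and 14.2, ratios of 0.627 and 3.34. The array with PACAP38 in Cy5 measured both RNAs, while on the other the control was not well above background. The arrays point in opposite directions, so no direction is given for Rasl11b. PACAP38 was well above background on 3 of 12 arrays and the control on 1.

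**Figure D2:**
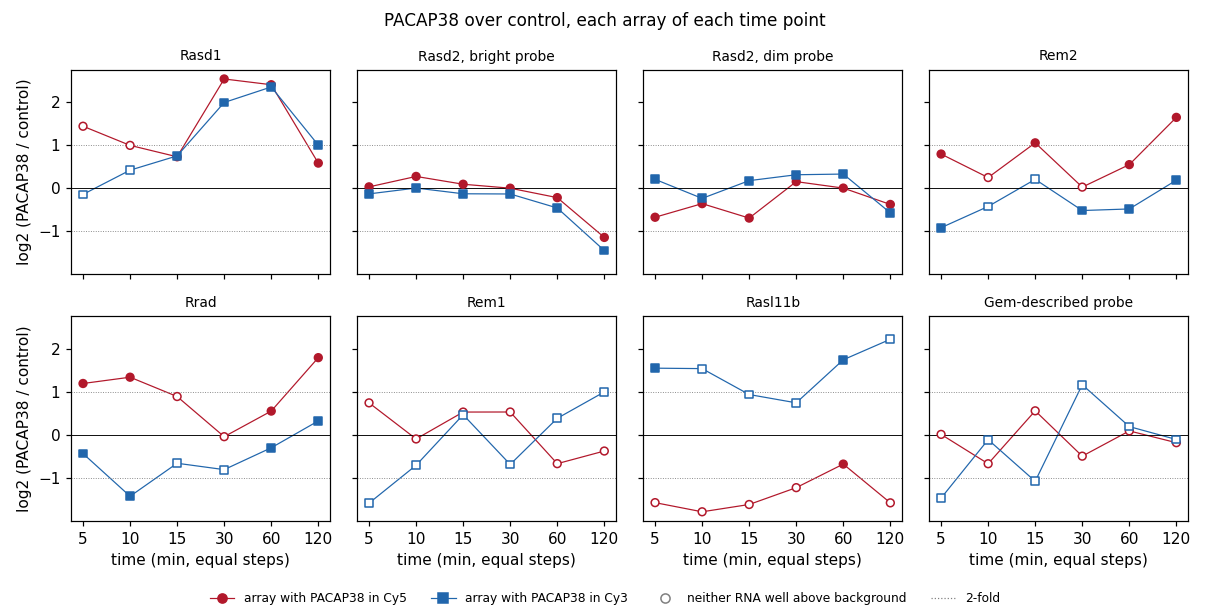
Log2 ratio of PACAP38 to control for the 7 member probes and the Gem-described probe at the 6 time points, on the array with PACAP38 in Cy5 (red circles) and on the array with PACAP38 in Cy3 (blue squares). Open points mark arrays with neither RNA well above background, where the ratio gives no fold. The arrays lie close together for Rasd1 at 15 and 60 min, differ little for the bright Rasd2 probe, with the Cy5 orientation higher at 6 of 6 times, and lie on opposite sides of 0 for Rasl11b at every time.

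A pair of tests that pool the time points was run with limma across 18720 probes for which some time point had the same RNA well above background on each of its arrays, with Benjamini-Hochberg adjustment over all of them. Of the 7 member probes 6 entered, all but Rem1. The slope of the log2 fold on log2 time was called for 3.87% of the probes as positive and 4.49% as negative (725 and 841 of all probes, with 6110 at an unadjusted p below 0.05, and 710 and 2519 with normexp and median centring). It was called for 0 of the 6 member probes, of which only those of Rasd2 are read as tests. The brighter Rasd2 probe had a slope of -0.25 per doubling of time (SE 0.07, limma adjusted p = 0.0606). It was called with time in minutes (adjusted p = 0.000335), with normexp and median centring (0.0286) and without 5 min (0.0312). Without 120 min its slope was -0.09 (limma adjusted p = 0.283), and with slide as a block its adjusted p was 0.878 and 0 of all probes were called. Each slide held 2 neighbouring time points.
The dimmer Rasd2 probe, measured in both RNAs throughout, had a slope of 0.02 (SE 0.07, limma adjusted p = 0.895), and 0.15 without 120 min. Rasd1, Rem2, Rrad and Rasl11b entered through the times at which PACAP38 was well above background on both arrays, and Rasd1 also through its control at 60 min. Their slopes also use times at which either RNA or both were not. Their slopes are therefore not read as tests, and no direction over time is given for them.
The mean log2 fold over the 6 time points was called for 0 of all probes (1862 at an unadjusted p below 0.05), members included. Rasd1 had the largest, 1.25 (SE 0.29, limma adjusted p = 0.492). With normexp (offset 50) and loess its mean was 0.22, smaller in size than the -0.26 of the brighter Rasd2 probe. At 5 and 10 min neither Rasd1 RNA was measured and at 15 and 30 min the control was not, so this mean is not read as a test. The same holds for Rem2, Rrad and Rasl11b. The brighter Rasd2 probe had -0.27 (SE 0.18, limma adjusted p = 0.513), and -0.07 without 120 min.

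**Figure D3:**
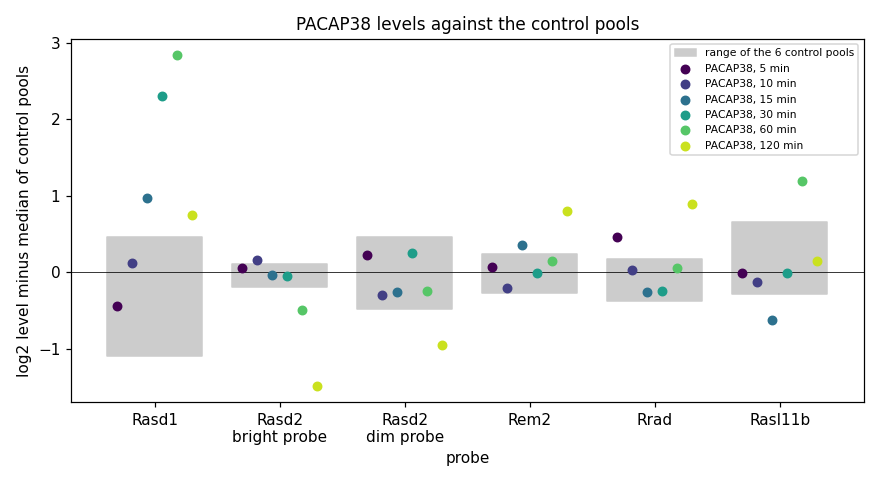
Log2 level of each PACAP38 pool after Aquantile normalization, as the difference from the median of the 6 control pools of the same probe, for the 6 member probes that entered the fit. Grey bars span the control pools. Rasd1 lies above its bar by 1.84 at 30 min and 2.37 at 60 min, and the bright Rasd2 probe below it by 1.29 at 120 min.

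The promoters of both Rasd genes are shown because these genes were the members counted. RefSeq sequences (GRCr8) from 250 bases before to 50 after a start were given for 5 of the 7 genes. The 250 bases before the start follow, with searched motifs in capitals. Rasd1 is at chr10:45267683-45267932 on the minus strand, from a start that lies inside the span RefSeq gives the gene, and Rasd2 at chr19:13599778-13600027 on the plus strand.
Rasd1: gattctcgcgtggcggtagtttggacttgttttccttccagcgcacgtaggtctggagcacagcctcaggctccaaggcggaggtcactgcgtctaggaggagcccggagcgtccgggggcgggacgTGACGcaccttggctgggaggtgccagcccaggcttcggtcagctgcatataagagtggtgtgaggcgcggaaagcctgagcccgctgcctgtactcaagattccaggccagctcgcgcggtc
Rasd2: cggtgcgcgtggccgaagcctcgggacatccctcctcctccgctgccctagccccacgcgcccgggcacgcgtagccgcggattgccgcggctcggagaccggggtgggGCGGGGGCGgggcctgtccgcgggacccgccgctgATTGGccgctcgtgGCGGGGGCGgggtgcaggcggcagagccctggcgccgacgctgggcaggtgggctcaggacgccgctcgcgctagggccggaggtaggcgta

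Both strands were searched for the cAMP response element TGACGTCA and its core TGACG, which it contains, the NF-Y box CCAAT, the TATA box TATAAA, the Egr1 motif GCGGGGGCG, the AP-1 motif TGANTCA and the CArG box of SRF. Rasd1 held TGACG, from 123 bases before the start, as did 21.2% of 33469 promoters of the same length. Rasd2 held GCGGGGGCG from 141 and from 92 bases before the start, which 2.73% of the promoters hold, and CCAAT on the opposite strand, printed above as ATTGG (37.5%). Rasl11b had CCAAT at 2 places on the opposite strand, and Rem1 and Rem2 held none of these motifs. TGACGTCA (1.83% of all promoters), TATAAA (14.2%), TGANTCA (7.33%) and the CArG box (1.64%) were in 0 of the 5. A match is a description of the letters and not a binding site.

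The genes whose time course lay closest to that of each counted member were found among 1319 gene names with a counted brightest probe, by the root mean square difference of the 6 log2 folds. For the brighter Rasd2 probe they were Bcorl1, a transcriptional corepressor gene (0.04 in log2), Stat5a, a signal-dependent transcription factor (0.05), and RGD1302996 (0.05). Their folds at 120 min were 0.396, 0.416 and 0.410, against 0.409 for Rasd2. For Rasd1 the closest named gene was Trmt10c, which encodes a subunit of mitochondrial RNase P, at 0.43, which had 4.09-, 6.83- and 1.95-fold after 30, 60 and 120 min. The other two nearest were the transcript clusters TC607606 (0.31), at 4.22-, 4.39- and 2.50-fold at these times, and TC620934 (0.48), at 2.70-, 3.61- and 2.73-fold. The distances for Rasd1 rest on 6 ratios of which those at 60 and 120 min were measured. At 5 and 10 min neither RNA was well above background and at 15 and 30 min the control was not, so the order of these genes is a description of the ratios only.

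Genes that act with these GTPases were taken from lists, with the brightest probe of each gene. Beside their counts stand the shares of all probes counted as higher, 0.87% at 60 min and 1.95% at 120 min, and as lower, 0.375 and 1.53%. Of 18 voltage-gated calcium channel subunits, the targets of RGK proteins, 7 were detected and 1 was counted. It was Cacna1s, the skeletal muscle pore subunit, as higher at 120 min, with folds of 2.82 and 2.71. Its control was below the limit of detection, which leaves a bound of 1.83-fold. Cacna1b, Cacna1c and Cacnb1, pore and beta subunits detected in both RNAs, had geometric mean folds of 0.766, 1.06 and 1.25 at 120 min and were not counted. The median log2 fold of the 7 at 120 min was 0.09, against -0.04 for all detected probes.
Of 17 measured partners of RGK proteins, 14 were detected and 1 was counted, Ezr, which encodes the membrane-actin linker ezrin. Its folds were 2.08 and 2.03 at 60 min and 3.04 and 3.17 at 120 min. Ywhaz, a 14-3-3 protein, had 1.56 and 1.65 at 120 min and Camk2g, a calcium/calmodulin-dependent kinase, 0.698 and 0.692, both short of the limits. The median log2 fold of the 14 was 0.08 at 120 min.
Of 12 partners of Rasd proteins 10 were detected and 0 were counted, with a median log2 fold of 0.22 at 120 min. Gnai1, a Gi alpha subunit, had folds of 1.94 and 2.30 at 120 min and Slc11a2, an iron transporter, had 2.01 and 1.87. Acbd3, a Golgi scaffold protein, had 0.391 and 0.525. Each of these was past the fold limit on 1 of its 2 arrays.

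Other GTPases of the Ras subfamily give the members a family to be set beside. Of 28 measured genes of the Ras subfamily 21 were detected. At 30 and 60 min 1 of the 28 was counted as higher, and at 120 min 1 as higher and 2 as lower, where 0.249, 0.87, 1.95 and 1.53% of all probes were counted in these directions. The gene counted as higher each time was Rasl11a, a paralog of Rasl11b, at 4.64-, 6.53- and 3.39-fold (geometric means) for these times in order. Its arrays gave 6.31 and 3.42 at 30 min, 7.65 and 5.58 at 60 min, then 5.47 and 2.10 at 120 min, and the ratio was higher with PACAP38 in Cy5 at 6 of 6 time points. Its control was well above background on both arrays at 60 min and on 1 of 2 at 30 and 120 min. The difference between Rasl11a and Rasl11b was not tested.
Nkiras1, an inhibitor of NF-kappa-B signalling, and Rasl10a, a Ras-like gene, were counted as lower at 120 min, the time at which Rasd2 was lower. Rasl10a had folds of 0.377 and 0.281, with PACAP38 well above background on 1 of 2 arrays. Nkiras1 had 0.310 and 0.403, with PACAP38 below the limit of detection, which leaves a bound of 1.98-fold lower. Rap1b, Rheb and Rhebl1 had geometric mean folds of 1.42, 1.54 and 0.539 at 120 min and were not counted. The median log2 fold of the 21 detected genes was -0.03 at 120 min, against -0.04 for all detected probes.

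**Figure D4:**
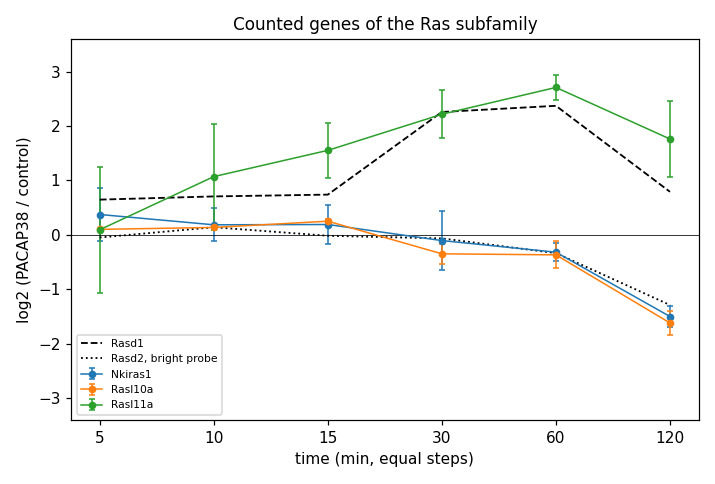
Log2 fold of PACAP38 over control, with bars from the lower to the higher of the 2 arrays, for the counted genes of the Ras subfamily at the 6 time points, with Rasd1 dashed and the bright Rasd2 probe dotted, both as geometric means. Rasl11a reaches a geometric mean of 6.53-fold at 60 min, and the point of Nkiras1 at 120 min stands for a bound of 1.98-fold lower.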

How the data were processed

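The authors scanned 12 two-colour arrays (45018 spots each) and made the processed Cy3 and Cy5 intensity values with Agilent's Feature Extraction (12.0.3.1 in the file headers, 11.0.1.1 in the submitters' processing notes). As deposited, these intensities are background-subtracted and LOWESS dye-normalized. The deposited mean and background intensities carry no normalization. The authors' log10 ratios, Cy5 over Cy3, are as deposited not turned for the dye swap, and the deposited value table holds the same ratio from the processed intensities. The deposited spot p-value tests the log ratio, and other deposited columns hold flags.

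Ratios of PACAP38 to control came from the processed intensities, turned by dye. The 1639 control spots and 197 to 267 outlier spots per array were dropped, and 263 probes with repeated spots got their mean. Folds are geometric means over the array pair, and the number of arrays limits the precision. For an RNA not well above background on either array, the bound is the bright RNA's mean level less, averaged over arrays, its own level or the lowest level well above background if that is higher (limma Aquantile). That lowest level is taken over all probes of the array, so the limit of a given probe can lie higher and the true difference can be smaller. limma 3.58.1 (R 4.3.3) fitted the dye-averaged log2 ratios with a variance trend, and the fit was tested on simulated data. Python 3.11.15 with pandas 2.3.3, numpy 2.4.6 and matplotlib 3.10.9 did the rest.

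Some genes of the lists are not reported here. The members, lists and motifs were chosen with earlier results of these data known. Named genes are all members, list genes that were counted, the 3 of each list with the largest fold at 120 min with both RNAs well above background, and the 3 genes with the nearest time course to each counted member. Alternatives were other fold and p limits, 1 array alone, normexp background correction (offset 50, and offset 1 chosen after seeing the data) with loess or median centring, the deposited table, all probes of a gene, time in minutes, slide as a block, no filter on dim probes, no variance trend (chosen after seeing the data) and leaving out each time point.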

Additional observations from a re-analysis of the deposited data

Results flagged for a closer look

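For both Rasd2 probes there were pairs of time points with both arrays above 1-fold at one time and both below it at the other, a difference that was not tested. Some of the ratios above 1 were barely so. The brighter probe had 1.003 at 10 min with PACAP38 in Cy3, and the dimmer probe 1.003 at 60 min with PACAP38 in Cy5. For the brighter probe the log2 fold at 10 min exceeded that at 60 min by 0.48 and that at 120 min by 1.43. For the dimmer probe the log2 fold at 30 min exceeded that at 10 min by 0.53 and that at 120 min by 0.70, and the log2 fold at 60 min exceeded that at 10 min by 0.46 and that at 120 min by 0.64. The arrays of a time point share their pools, so these differences have no biological replicate.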

How the results depend on the processing

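Rasd1 depended on the background correction. With normexp (offset 50) its geometric mean ratio fell from 4.78 to 1.27 with loess and 1.27 with median centring at 30 min, and from 5.17 to 1.65 and 1.66 at 60 min, so that 0 member probes were counted at 30 and 60 min by the fold limit alone. With normexp (offset 1) and loess, chosen after seeing the data, the folds were 2.60 and 3.68. An offset added to both channels lowers the ratio of a dim probe by construction.
At 60 min the array with PACAP38 in Cy3 alone counted 2 member probes (Rasd1 and Rasl11b). At 120 min 0 were counted with a 3-fold limit, 3 with PACAP38 in Cy5 alone (Rasd2, Rem2 and Rrad) and 0 with normexp and median centring, under which the geometric mean fold of Rasd2 was 0.351. The mean of both Rasd2 probes at 120 min was 0.543. The other alternatives left the counts of members as given.
The number of members with a called slope was 1 (Rasd2) with time in minutes and with normexp and median centring, and 0 to 1 when a time point was left out. The mean fold gave 0 called members under every alternative, while over all probes it gave 22 calls without 5 min. Over all probes the slope gave 21 calls without 10 min, 94 without 15 min, 91 without 60 min and 195 without 120 min, against 1566. It gave 3229 with normexp and median centring, 6298 with time in minutes, 437 without the filter on dim probes, 244 without the variance trend and 0 with slide as a block (662 at an unadjusted p below 0.05).
Each ratio pairs a PACAP38 pool with the control pool of its time. No pairing by replicate number was possible, because these numbers stand for the dye orientation of the same pools.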
